A study of Mus musculus with 6 samples.

Results

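The tricarboxylic acid (TCA) cycle, the routes by which pyruvate enters it and malate or oxaloacetate leaves it, and the γ-aminobutyrate (GAB, also written GABA) shunt were examined as a set of 34 genes among the 54525 genes of one RNA-seq table of activated mouse CD4+ T cells. The genes were chosen by name for the enzymes they encode, with earlier results of these data known, and each was found once in the table by its symbol. Naive CD4+ T cells from spleen and lymph nodes of mice aged 6 to 8 weeks, of the C57BL/6N strain per the labels, were activated for 36 h with IL-2 and antibodies to CD3 and CD28 fixed to the plate, with no polarizing cytokine (the TH0 condition) and no other treatment. The first group, of 3 samples, came from *Abat* cKO mice, in which a conditional *Abat* allele was removed in T cells by Cd4-Cre. The second group, also of 3 samples, came from wild-type (WT) mice.

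The targeted allele of the *Abat* cKO line was first passed through a Flippase strain and then crossed to Cd4-Cre, whose promoter acts in T cells from their development in the thymus, so CD8+ T cells of these mice carry the deletion too. WT was C57BL/6 according to the methods, which mention no littermate controls. The reporting summary describes a separate activation and harvest for each genotype, so that effects of culture and of genotype cannot be told apart. The study speaks of independent biological samples, and the number of animals behind each was not given in the sources used here.

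In the TCA cycle, acetyl-CoA joins oxaloacetate to make citrate, and the carbon is oxidized step by step through 2-oxoglutarate, succinate, fumarate and malate back to oxaloacetate. Pyruvate carboxylase and glutamate dehydrogenase refill the cycle with oxaloacetate and 2-oxoglutarate, while phosphoenolpyruvate carboxykinase and the malic enzymes draw carbon out of it. The GABA shunt goes around the steps between 2-oxoglutarate and succinate: glutamate decarboxylase makes GAB from glutamate, ABAT turns GAB into succinic semialdehyde, and succinic semialdehyde dehydrogenase makes succinate.

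Counts over genes summed to between 19566016 and 24396746 per library, and spike-in controls took 0.817% to 1.003% of all counts. Levels are given as CPM, a gene's share of its library's counts brought to one common library size after scaling by the trimmed mean of M values (TMM), and levels of different genes are compared only after division by the gene length that the table lists. In these bulk samples, fewer cells of a type and less RNA per cell cannot be told apart. The T cell markers *Cd3e*, *Cd3d*, *Cd3g*, *Cd247*, *Cd4*, *Cd5*, *Cd28*, *Lck*, *Trac*, *Trbc1* and *Trbc2* summed to 3550 to 3698 CPM in *Abat* cKO and 4053 to 4149 CPM in WT, with 0 of 11 higher and 7 of 11 lower by the test described below. Markers of other cells also moved with genotype: 5 of 6 tested B cell markers were lower, with the list summing to 99.2 to 103 CPM in *Abat* cKO and 239 to 262 CPM in WT. Both CD8 T cell markers were lower (5.62 to 6.49 CPM against 7.502 to 24.2 CPM) and both tested gamma-delta T cell markers were higher (8.07 to 8.32 CPM against 2.61 to 4.61 CPM), while 2 of 3 tested NK cell markers were higher and 1 was lower. Of 2 tested myeloid markers 1 was higher, no erythroid marker had enough counts for the test, and *Hbb-bs*, *Hbb-bt* and *Alas2* were at 0 counts in every library. The part of these markers in the results that follow was not tested.

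*Abat*, the deleted gene and the entry enzyme of GAB catabolism (chr16:8513429-8621568, GRCm38), had 7, 3, 2 counts in the *Abat* cKO libraries and 5, 1, 0 counts in the WT libraries. These numbers overlap between genotypes and sum to 12 against 6 counts. The ratio of *Abat* cKO over WT, corrected for library size, was 2.22 with an exact 95% binomial interval of 0.771 to 7.21, which covers counting error only. At this depth a count of 0 still allows 3 counts, or 0.122 to 0.156 CPM per library, so the level of *Abat* was too low to check the genotype labels. The position of the deleted exons within the counted gene was not given in the sources used here.

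Genotypes were compared on the raw counts by the quasi-likelihood test of edgeR. A filter on low counts left 13605 genes, and p-values were adjusted over all of them by the Benjamini-Hochberg method. Of the 34 genes, 30 passed the filter, and 7 of the 30 were higher in *Abat* cKO at an adjusted p under 0.05 (23.3%, against 18.1% of all genes tested). Only 2 of the 30 were lower (6.67%, against 13.4% of all genes), so 9 of the 30 changed, against 31.5% of all genes. The values of *Abat* cKO and WT samples did not overlap for 11 of the 30 (36.7%), against 45.9% of all genes. With TMM scaling the share that changed was thus near the share over the whole table. Scaling by library size alone gave 6 higher and 4 lower, or 33.3% of the 30 against 32.5% of all genes. Scaling to the spike-in counts gave 3 higher and 0 lower of the 30, against 18.6% of all genes in either direction, so under that scaling the share of the set was the smaller one.

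The median log2 fold change was 0.0028 over the 30 genes and 0.0046 over all genes, and its median size without sign was 0.0956 against 0.172. Their median average level, not corrected for length, was 6.79 on the log2 CPM scale, against 4.47 for all genes. Of the 30, 1 gene, *Pck2*, changed by more than 2-fold, as did 811 of all genes tested. The 34 genes summed to 3876 ± 118 CPM in *Abat* cKO and 3654 ± 101 CPM in WT (SD, n = 3 each). Without *Pck2* the sums were 3702 ± 113 CPM and 3617 ± 102 CPM. The 20 genes of the cycle itself summed to 2792 ± 92.5 CPM in *Abat* cKO and 2794 ± 79.1 CPM in WT, a difference well within the spread between samples.

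**Figure D1:**
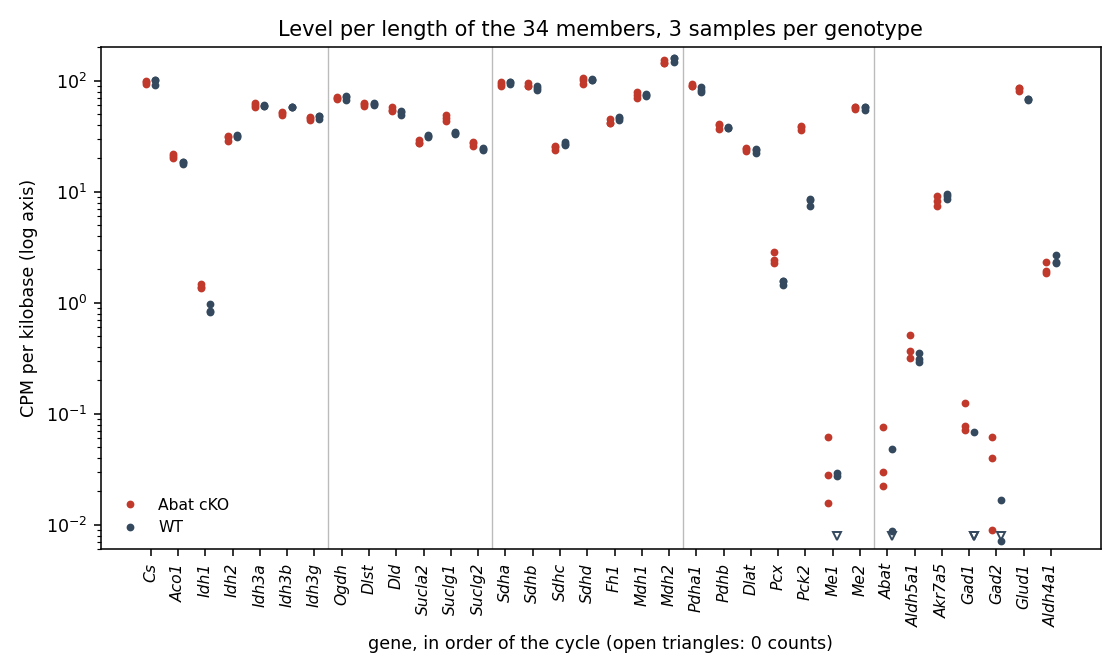
Level per gene length (CPM per kilobase, log axis) of the 34 genes in the 3 *Abat* cKO and 3 WT samples, 1 point per sample, in the order of the pathway, with open triangles for 0 counts. Apart from *Aco1* and *Idh1*, the cycle genes average between 24.3 and 156 CPM per kilobase in both genotypes, *Pck2* stands apart between genotypes, and *Me1*, *Abat*, *Gad1* and *Gad2* average 0.0918 or less.

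Levels per length of the cycle genes were widely spread, and all but *Aco1* and *Idh1* averaged between 24.3 and 156 CPM per kilobase. *Mdh2* encodes mitochondrial malate dehydrogenase. By the listed gene length it had the highest level of the 34, at 148 ± 6.08 CPM per kilobase in *Abat* cKO and 156 ± 8.17 CPM per kilobase in WT (SD, n = 3 each). *Sdhd*, a membrane anchor of succinate dehydrogenase, *Cs*, citrate synthase, and *Sdha*, the flavoprotein of succinate dehydrogenase, came next. *Cs* was at 97.6 ± 2.96 CPM per kilobase in *Abat* cKO and 98.7 ± 6.36 CPM per kilobase in WT, and *Sdha* at 93.6 ± 3.56 against 96.5 ± 2.37 CPM per kilobase. In *Abat* cKO, *Sdhd* and *Cs* differed by less than the larger SD of the pair and *Cs* and *Sdha* by slightly more, and in WT each differed from the next by less than that SD. This order rests on the listed gene length, whose definition was not given in the sources used here. The listed length was 1606 bases for *Mdh2* and 1231 for *Sdhd*, against 3562 and 1231 bases of annotated exons. Another length could change the order. The levels of *Pck2* were 37.7 ± 1.42 CPM per kilobase in *Abat* cKO and 8.17 ± 0.680 CPM per kilobase in WT. *Idh1* encodes the NADP-dependent enzyme of the cytosol, and its transcripts were far less abundant than those of its mitochondrial counterpart *Idh2* in both genotypes. The levels in *Abat* cKO and WT were 1.41 ± 0.0746 against 0.881 ± 0.0763 CPM per kilobase for *Idh1* and 30.5 ± 1.66 against 32.0 ± 0.638 for *Idh2*.

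The largest difference was in the exit of oxaloacetate. *Pck2*, mitochondrial phosphoenolpyruvate carboxykinase, makes phosphoenolpyruvate from oxaloacetate (chr14:55540266-55551242, plus strand, GRCm38). Its level was 167, 180 and 177 CPM in the *Abat* cKO samples and 39.9, 34.2 and 39.2 CPM in the WT samples. Every *Abat* cKO sample was above every WT sample by a wide margin. On the log2 scale the difference was 2.21 (standard error 0.06), or 4.63-fold (95% interval 4.20 to 5.10), and edgeR's adjusted p was 7.2e-09. *Pck2* ranked 14 by p among the 13605 genes, and the log2 fold change lay between 2.14 and 2.27 over the 14 alternative settings, passing in every one. *Pck2* took 4.501% ± 0.0992 of the summed CPM of the 34 genes in *Abat* cKO and 1.04% ± 0.101 in WT. Its cytosolic counterpart *Pck1* had 0 counts in every library.

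The promoter window of *Pck2* is shown because *Pck2* was the one gene past 2-fold among the 30 that were tested. It is the RefSeq sequence of GRCm38.p6, chr14:55540016-55540315, plus strand, which holds 250 bases before and 50 bases after the annotated start. Capitals mark a match to TGATGNAA, the core of the C/EBP-ATF response element, which lies on the minus strand 103 to 96 bases before the start:
Pck2 promoter: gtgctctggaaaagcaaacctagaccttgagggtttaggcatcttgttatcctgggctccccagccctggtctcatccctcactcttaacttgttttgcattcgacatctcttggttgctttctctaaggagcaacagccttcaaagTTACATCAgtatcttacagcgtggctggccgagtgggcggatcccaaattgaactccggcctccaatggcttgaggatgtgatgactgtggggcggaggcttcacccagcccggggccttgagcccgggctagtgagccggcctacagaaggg

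Short motifs, 3 in number, were searched on both strands of the same window of 32851 promoters, of which 38 belonged to 30 of the 34 genes. TGATGNAA was found in 3.97% of all promoters and in 1 of the 38 of the set, that of *Pck2*. The cAMP response element TGACGTCA was in 1.79% of all promoters and in 4 of the 38, which belong to *Mdh2* and *Ogdh*. Neither of these genes passed the test. The E-box CACGTG was in 7.15% of all promoters and in 4 of the 38, which belong to *Ogdh* and *Pcx*. No match of one motif overlapped a match of another. A match describes the letters in the window and not binding.

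*Pcx*, pyruvate carboxylase, makes oxaloacetate from pyruvate (chr19:4510472-4621752). It was at 10.03, 11.9 and 9.41 CPM in the *Abat* cKO samples and 6.45, 6.57 and 6.05 CPM in the WT samples. The lowest *Abat* cKO sample was above the highest WT sample. The log2 fold change was 0.72 (standard error 0.11), or 1.64-fold (95% interval 1.38 to 1.95), and edgeR gave an adjusted p of 0.00082. *Pcx* passed under all 14 alternatives, with log2 fold changes between 0.61 and 0.77.

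The other genes of pyruvate entry and malate exit were closer between genotypes. *Pdha1*, the E1 alpha subunit of the pyruvate dehydrogenase complex that makes acetyl-CoA, was at 255, 258 and 268 CPM in *Abat* cKO and 235, 251 and 227 CPM in WT, without overlap. Its log2 fold change of 0.13 (95% interval 0.02 to 0.23) did not pass in edgeR (adjusted p = 0.064), and over the alternatives the adjusted p ran between 0.025 and 0.74. It passed without *Abat* cKO replicate 1 (0.043), without WT replicate 2 (0.039) and with both WT replicate 3 and *Abat* cKO replicate 1 left out (0.025). Exons of *Map3k15* on the opposite strand cover 16.2% of the exon bases of *Pdha1*, and *Map3k15* had 75, 74, 74 counts in *Abat* cKO and 40, 45, 49 counts in WT, against at least 4695 counts for *Pdha1* in every library. The E1 beta gene *Pdhb*, the E2 gene *Dlat* and the mitochondrial malic enzyme gene *Me2* had log2 fold changes of 0.06, 0.03 and 0.01. *Pdhb* passed as higher only with both WT replicate 3 and *Abat* cKO replicate 1 left out (log2 fold change 0.11, adjusted p = 0.042 in edgeR). *Me1*, the cytosolic malic enzyme gene, had 4, 2, 1 counts in *Abat* cKO and 2, 0, 2 counts in WT, too few for the test.

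**Figure D2:**
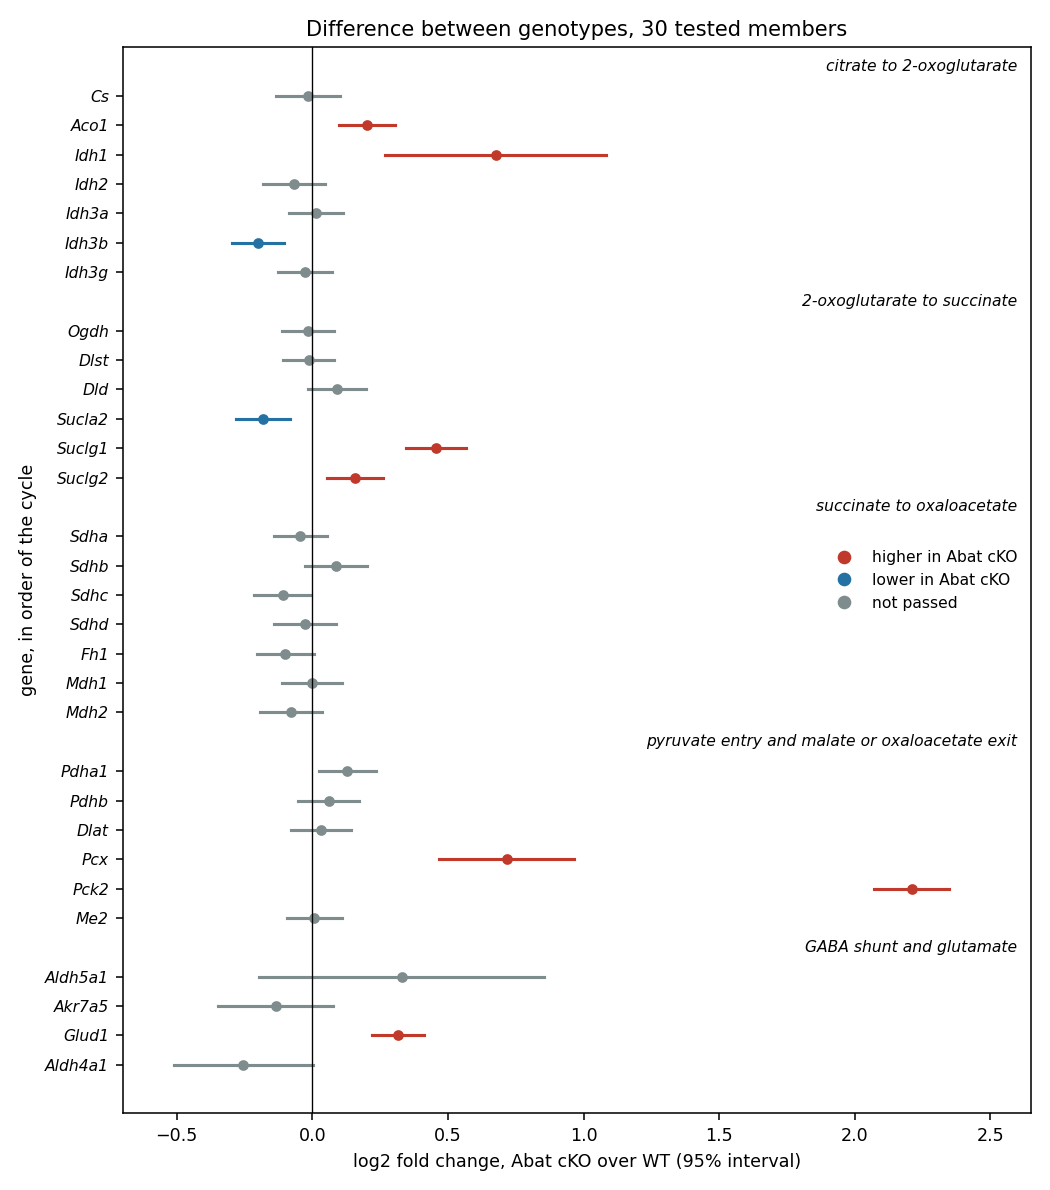
Log2 fold change of *Abat* cKO over WT with its 95% interval for the 30 genes that passed the filter on low counts, in the order of the pathway, red where higher, blue where lower and grey where not passed. *Pck2* is at 2.21, the other 8 genes that passed lie between -0.20 and 0.72, and all 7 genes of the steps between succinate and oxaloacetate are grey. Of all genes tested, 31.5% passed.

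Between citrate and 2-oxoglutarate, 2 of 7 genes were higher and 1 was lower, beside 18.1% and 13.4% of all genes tested. *Aco1*, which encodes the cytosolic aconitase that doubles as an iron regulatory protein (chr4:40143081-40198338), was at 83.4, 77.1 and 81.2 CPM in *Abat* cKO and 70.5, 71.7 and 68.2 CPM in WT. All *Abat* cKO values were above all WT values, by a log2 fold change of 0.20 (standard error 0.05) at an edgeR adjusted p of 0.0083. *Idh1*, the NADP-dependent isocitrate dehydrogenase of the cytosol (chr1:65158616-65186500), had 63, 67 and 66 counts in *Abat* cKO and 42, 48 and 46 counts in WT, or 3.18, 3.11 and 3.43 CPM against 1.90, 1.96 and 2.23 CPM. The genotypes did not overlap, and the log2 fold change was 0.68 (standard error 0.18) at an edgeR adjusted p of 0.018.

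*Idh3b* was the lower gene of this stretch. It encodes the beta subunit of the NAD-dependent isocitrate dehydrogenase (chr2:130279309-130284547), and it was at 100.1, 108 and 104 CPM in *Abat* cKO and 119, 120 and 120.1 CPM in WT. Every *Abat* cKO sample was below every WT sample, with a log2 fold change of -0.20 (standard error 0.04) and an edgeR adjusted p of 0.0051. The alpha and gamma subunits of the same enzyme, *Idh3a* and *Idh3g*, had log2 fold changes of 0.01 (95% interval -0.09 to 0.11) and -0.03 (-0.13 to 0.07) and overlapped between genotypes. Per length, the ratio of *Idh3b* to *Idh3a* was 0.846, 0.833 and 0.839 in *Abat* cKO and 0.972, 0.965 and 0.981 in WT. The ratios did not overlap between genotypes. *Cs* and *Idh2* had log2 fold changes of -0.02 and -0.07.

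Between 2-oxoglutarate and succinate, the succinyl-CoA ligase genes moved in opposite directions, while the 3 genes of the 2-oxoglutarate dehydrogenase complex, *Ogdh*, *Dlst* and *Dld*, had log2 fold changes of -0.01, -0.01 and 0.09 and did not pass. *Suclg1* encodes the alpha subunit that both forms of the ligase share (chr6:73248382-73276911). It was at 121, 128 and 136 CPM in *Abat* cKO and 92.9, 95.7 and 91.7 CPM in WT. The gap between the lowest *Abat* cKO and the highest WT sample was wider than the whole range of either genotype. The log2 fold change was 0.46 (standard error 0.05), or 1.37-fold, at an edgeR adjusted p of 7.4e-05, and it passed under all 14 alternatives (0.40 to 0.49).

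The beta subunits differed from each other. *Sucla2*, the beta subunit of the ADP-forming ligase (chr14:73525319-73596142), was at 61.5, 61.1 and 64.8 CPM in *Abat* cKO and 70.6, 72.2 and 69.6 CPM in WT. *Suclg2*, the beta subunit of the GDP-forming ligase (chr6:95473009-95718800), was at 92.2, 86.7 and 94.6 CPM in *Abat* cKO and 82.8, 81.8 and 80.4 CPM in WT. Neither gene overlapped between genotypes, and *Sucla2* was lower while *Suclg2* was higher in *Abat* cKO. The log2 fold changes were -0.18 (standard error 0.04, adjusted p = 0.010 in edgeR) for *Sucla2* and 0.16 (standard error 0.05, adjusted p = 0.025 in edgeR) for *Suclg2*. Of the 100-base stretches of *Suclg2* exons, 8.60% also occur in the pseudogene *Gm15163*, so a small part of its reads could be counted there.

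Ratios within a library do not depend on scaling between libraries. Per length, *Suclg2* over *Sucla2* was 0.993, 0.939 and 0.967 in *Abat* cKO and 0.776, 0.750 and 0.765 in WT. *Suclg1* over *Sucla2* was 1.59, 1.68 and 1.69 in *Abat* cKO and 1.06, 1.07 and 1.06 in WT. Both ratios were higher in every *Abat* cKO sample than in any WT sample. The 8 gene pairs set against each other in this way were picked after their values were seen, so they are given as a description. With 3 against 3 samples, an exact permutation test cannot give a two-sided p under 0.1, so it cannot decide here. *Pdha1* over *Pdhb* overlapped between genotypes, at 2.34 ± 0.127 in *Abat* cKO and 2.23 ± 0.129 in WT (SD, n = 3 each). The ratio of *Pck2* to *Pcx* was 15.1 ± 1.63 in *Abat* cKO and 5.34 ± 0.602 in WT, and that of *Idh1* to *Idh2* was 0.0462 ± 0.00289 and 0.0275 ± 0.00249.

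Across the subunits of one complex, the log2 fold changes spanned 0.64 for succinyl-CoA ligase and 0.21 for the NAD-dependent isocitrate dehydrogenase. The spans were 0.20 for the 4 subunits of succinate dehydrogenase, 0.11 for the 2-oxoglutarate dehydrogenase complex and 0.10 for the pyruvate dehydrogenase complex with *Dld* counted in both.

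**Figure D3:**
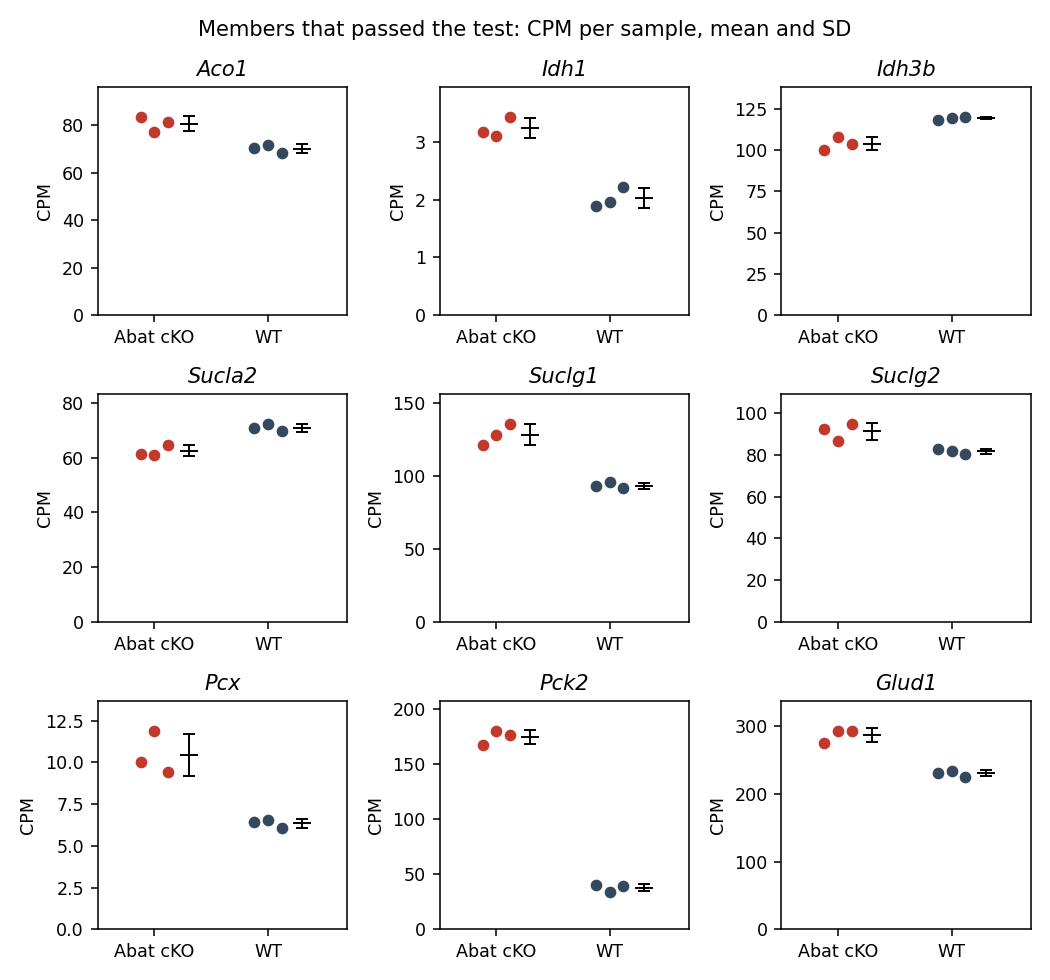
CPM in each of the 3 *Abat* cKO and 3 WT samples (points) with the mean and SD (bars) for the 9 genes that passed the test, each panel with its own axis that starts at 0. The genotypes do not overlap in any panel, and *Idh3b* and *Sucla2* are the panels where *Abat* cKO is lower.

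From succinate to oxaloacetate, 0 of 7 genes passed the edgeR test at an adjusted p under 0.05, and 1 (*Sdhc*) had an unadjusted p under 0.05. Over all genes tested, 31.5% passed, and whether these 7 genes differ from that share was not tested. The 4 succinate dehydrogenase genes, *Sdha*, *Sdhb*, *Sdhc* and *Sdhd*, which feed electrons from succinate into the respiratory chain, had log2 fold changes of -0.04, 0.09, -0.11 and -0.03. *Fh1*, fumarate hydratase, was at -0.10, the cytosolic malate dehydrogenase gene *Mdh1* at 0.00 and *Mdh2* at -0.08. *Sdhc* was the one gene of these 7 whose samples did not overlap, at 76.0, 80.5 and 81.6 CPM in *Abat* cKO and 83.0, 88.4 and 85.6 CPM in WT (adjusted p = 0.10 in edgeR, and 0.039 to 0.38 over the alternatives). *Sdhc* and *Fh1* passed as lower only when libraries were scaled by their size alone, each with an adjusted p of 0.039 in edgeR. *Mdh2* passed as lower only with both WT replicate 3 and *Abat* cKO replicate 1 left out (log2 fold change -0.10, adjusted p = 0.030 in edgeR). DESeq2 called 0 of the 7, beside 22.0% of all genes to which it gave an adjusted p.

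Of the 21 tested genes that did not pass, 18 had a mean of at least 50 CPM in WT. Their log2 fold changes lay between -0.11 and 0.13, and every 95% interval lay within -0.21 and 0.23, so a difference of more than 1.18-fold in either direction was outside the interval of each. The other 3 were low in level, with wider intervals, and belong to the GABA shunt and its neighbours.

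In the GABA shunt and the reactions of glutamate beside it, 1 of 4 tested genes passed, beside 31.5% of all genes tested. *Glud1*, glutamate dehydrogenase, makes 2-oxoglutarate from glutamate (chr14:34310727-34345265). It was at 275, 292 and 292.4 CPM in *Abat* cKO and 231, 234 and 225 CPM in WT. The genotypes were well separated, with a log2 fold change of 0.32 (standard error 0.04) and an edgeR adjusted p of 0.00032. *Aldh5a1*, succinic semialdehyde dehydrogenase, the last enzyme of the shunt, was at 1.82, 2.88 and 2.08 CPM in *Abat* cKO and 1.67, 1.76 and 1.98 CPM in WT. Its samples overlapped, and its log2 fold change of 0.33 had a 95% interval of -0.20 to 0.86 (adjusted p = 0.34 in edgeR). *Akr7a5*, an aldo-keto reductase that acts on succinic semialdehyde, had a log2 fold change of -0.14 (95% interval -0.35 to 0.08).

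*Aldh4a1*, which makes glutamate from pyrroline-5-carboxylate, was at 8.07, 9.64 and 7.70 CPM in *Abat* cKO and 11.2, 9.71 and 9.44 CPM in WT. These values overlapped, with a log2 fold change of -0.26 (95% interval -0.51 to 0.00, adjusted p = 0.12 in edgeR). Another annotated gene on the same strand, *Gm21969*, covers 32.5% of the exon bases of *Aldh4a1*, and its counts were 1, 0, 1 in *Abat* cKO and 0, 0, 0 in WT, so the level of *Aldh4a1* is uncertain if reads common to both were dropped. Antisense transcripts cover 17.7% of the exon bases of *Aldh5a1*, and whether the counting used strand was not given in the sources used here.

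Transcripts for the enzymes that make GAB from glutamate were near the floor of detection. *Gad1*, glutamate decarboxylase 1, had 9, 6 and 5 counts in *Abat* cKO and 0, 6 and 0 counts in WT, and *Gad2*, glutamate decarboxylase 2, had 7, 5 and 1 counts in *Abat* cKO and 0, 1 and 2 counts in WT. WT replicate 2 gave all 6 WT counts of *Gad1*, as many as *Abat* cKO replicate 2. The summed ratios of *Abat* cKO over WT were 3.70 (exact 95% binomial interval 1.43 to 11.3) for *Gad1* and 4.81 (1.32 to 26.3) for *Gad2*, and these intervals cover counting error only. With no filter on low counts, edgeR gave adjusted p-values of 0.065 for *Gad1*, 0.12 for *Gad2*, 0.48 for *Abat* and 0.62 for *Me1*.

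**Figure D4:**
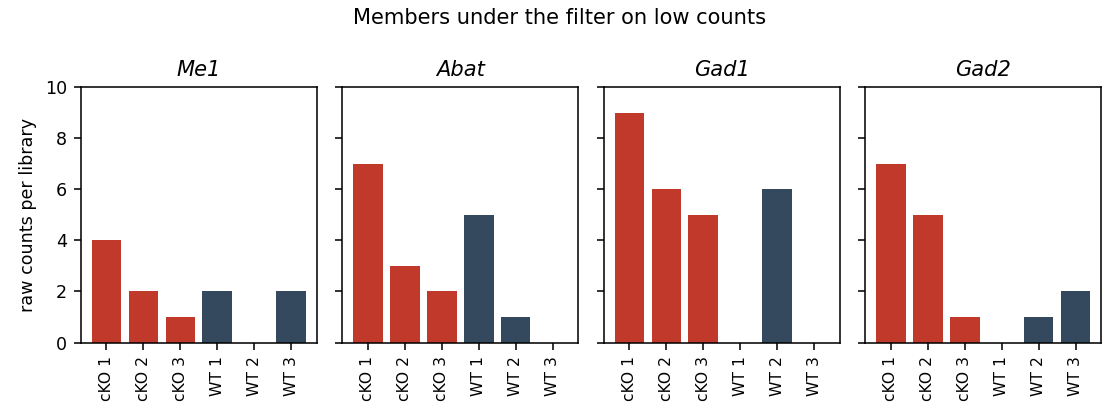
Raw counts per library of the 4 genes under the filter on low counts, in the 3 *Abat* cKO and 3 WT libraries. No bar is above 9 counts, and 1 WT library holds all 6 counts of *Gad1* in that genotype.

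The 9 genes that passed differed in how far they rested on a setting. *Pck2*, *Pcx* and *Suclg1* passed everywhere. *Aco1*, *Glud1* and *Idh3b* failed only under scaling to the spike-in counts (log2 fold changes of 0.15, 0.27 and -0.25, with adjusted p of 0.41, 0.11 and 0.13 in edgeR), with the same sign. *Sucla2* also failed without *Abat* cKO replicate 2 (log2 fold change -0.17, adjusted p = 0.056 in edgeR). *Idh1* failed in 6 of 14 alternatives, among them without *Abat* cKO replicate 3 (log2 fold change 0.62), without WT replicate 1 (0.63) and without WT replicate 2 (0.65), with adjusted p-values of 0.054 to 0.071 where it failed. *Suclg2* failed in 8 of 14, among them without *Abat* cKO replicate 3 (0.12) and without WT replicate 1 (0.17), 2 (0.16) or 3 (0.14), with adjusted p-values of 0.054 to 0.59.

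**Figure D5:**
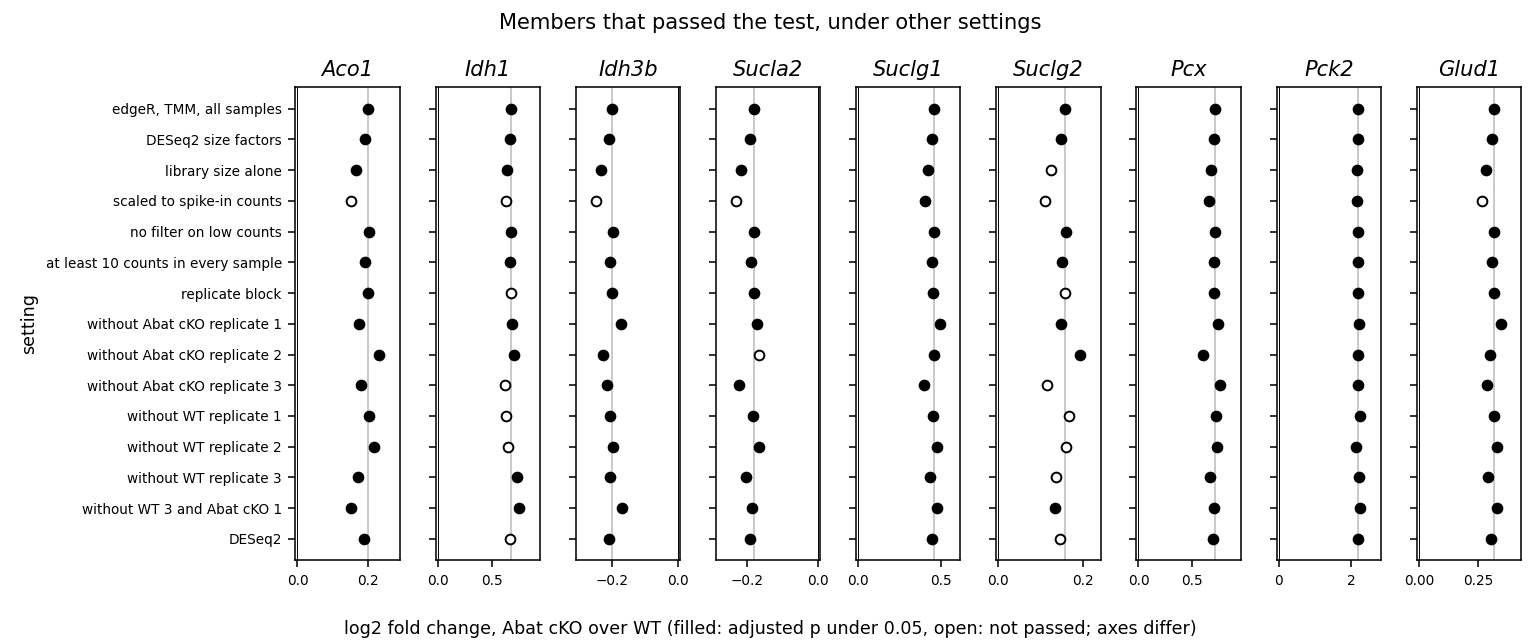
Log2 fold change of *Abat* cKO over WT for the 9 genes that passed, under the main setting (top) and 14 alternatives, filled where the adjusted p is under 0.05 and open where it is not, with the main value as a grey line and a different axis in each panel. *Pck2*, *Pcx* and *Suclg1* are filled throughout, and no point crosses 0.

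Genes around the cycle were taken from lists chosen with earlier results of these data known, and their counts stand beside 18.1% of all genes tested that were higher and 13.4% that were lower. Among 11 tested genes of pyruvate transport and control of pyruvate dehydrogenase, 2 rose, 1 fell and 8 did not pass. *Ldha*, the lactate dehydrogenase subunit that makes lactate from pyruvate, was at 2165 ± 135 CPM in *Abat* cKO and 1711 ± 22.5 CPM in WT, and *Pdp2*, a phosphatase that activates pyruvate dehydrogenase, was at 69.1 ± 2.22 against 50.9 ± 4.43 CPM (SD, n = 3 each). Their log2 fold changes were 0.34 and 0.44. *Pdk2*, a kinase that inhibits the complex, was at 1.89 ± 0.556 CPM in *Abat* cKO and 3.12 ± 0.375 CPM in WT (log2 fold change -0.73, adjusted p = 0.046 in edgeR), a call that was lost without *Abat* cKO replicate 2 (log2 fold change -0.50) and without WT replicate 1 (-0.82), 2 (-0.71) or 3 (-0.67), as well as in DESeq2 (-0.74, adjusted p = 0.066) and with the replicate number as a block (-0.75, adjusted p = 0.074 in edgeR). The mitochondrial pyruvate carrier genes *Mpc1* and *Mpc2* had log2 fold changes of 0.19 (adjusted p = 0.052 in edgeR) and -0.08.

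Of 11 genes for assembly of succinate dehydrogenase, lipoylation and iron-sulfur clusters, 0 passed in edgeR, 0 passed in DESeq2 and 0 had an unadjusted p under 0.05 in edgeR. Of 8 tested alternative isoforms and side reactions, 3 were higher and 0 were lower. *Ogdhl*, a relative of *Ogdh*, was at 2.69 ± 0.765 CPM in *Abat* cKO and 1.07 ± 0.419 CPM in WT. *Acod1*, which diverts cis-aconitate to itaconate, was at 2.41 ± 0.280 against 0.573 ± 0.373 CPM, and *Acly*, which splits exported citrate in the cytosol, was at 503 ± 17.6 against 448 ± 14.9 CPM. Without *Abat* cKO replicate 2, 1 gene of this list passed. *Me3* and *Pck1* were at 0 counts in every library.

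Of 8 tested mitochondrial carriers of cycle metabolites, 3 were higher and 0 were lower: *Slc25a12*, an aspartate-glutamate carrier (log2 fold change 0.39), *Slc25a1*, the citrate carrier (0.24), and *Slc25a11*, the 2-oxoglutarate carrier (0.16). The first of these, *Slc25a12*, was at 69.2 ± 2.04 CPM in *Abat* cKO and 52.7 ± 1.19 CPM in WT (SD, n = 3 each). Only 1 carrier passed when libraries were scaled by size alone or to the spike-in counts, and 1 passed without *Abat* cKO replicate 2, without *Abat* cKO replicate 3 or without any of the WT samples in turn.

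A list of enzymes that convert glutamine and glutamate and of amino acid transporters held 13 tested genes. Of these, 11 rose (*Glud1* among them), 0 fell and 2 did not pass, and the median log2 fold change of the list was 0.32, against 0.0046 over all genes. The genes of this list with the 4 smallest adjusted p-values were transporters that do not carry glutamate into the cell, *Slc7a11* and *Slc7a5*, and transaminases, *Gpt2* and *Psat1*. *Slc7a11*, the cystine-glutamate exchanger, was at 22.1 ± 2.40 CPM in *Abat* cKO and 1.45 ± 0.126 CPM in WT. *Gpt2*, mitochondrial alanine transaminase, which yields 2-oxoglutarate, was at 57.5 ± 0.823 against 9.90 ± 0.190 CPM, *Slc7a5*, a large neutral amino acid transporter, at 659 ± 15.9 against 314 ± 11.8 CPM, and *Psat1*, phosphoserine transaminase, at 739.6 ± 23.0 against 404 ± 8.10 CPM. The log2 fold changes were 3.92 for *Slc7a11*, 2.54 for *Gpt2*, 1.07 for *Slc7a5* and 0.87 for *Psat1*. Scaled to the spike-in counts, 5 of the 13 were higher and 0 were lower.

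Of 6 tested genes of proline and pyrroline-5-carboxylate, 3 were higher and 1 was lower, with the same counts under each scaling. *Pycr1* and *Aldh18a1*, which make proline from glutamate in mitochondria, had log2 fold changes of 1.61 and 0.78, *Prodh*, which degrades proline, one of 0.80, and *Pycrl*, a cytosolic reductase, one of -0.40. *Aldh4a1*, the step that returns this carbon to glutamate, is described above.

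The other source of GAB is putrescine. Of 11 genes of this route 4 were tested, and 1 was higher: *Odc1*, ornithine decarboxylase, which makes putrescine, at 712 ± 26.8 CPM in *Abat* cKO and 576 ± 9.53 CPM in WT (log2 fold change 0.31, SD, n = 3 each). It did not pass when scaled to the spike-in counts. *Aldh9a1*, an aldehyde dehydrogenase of the last step, had a log2 fold change of 0.07, and *Aoc1*, a diamine oxidase, had 1 count over all 6 libraries. *Arg1*, *Maob* and *Sat2* were at 0 counts in every library.

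Most genes of GABA receptors and transporters were too low for the test. Of 21 GABA receptor genes, 1 was tested: *Gabbr1*, a subunit of the metabotropic receptor, at 10.7 ± 1.73 CPM in *Abat* cKO and 11.8 ± 2.17 CPM in WT (log2 fold change -0.14, adjusted p = 0.53 in edgeR). The other 20 held 27 counts in all *Abat* cKO libraries and 24 in all WT libraries, and 12 of them were at 0 counts in every library. Of 7 transporter genes, 2 were tested and neither passed: *Slc6a6*, the taurine transporter, had a log2 fold change of -0.03, and *Slc6a8*, the creatine transporter, one of 0.75 (adjusted p = 0.12 in edgeR). *Slc32a1*, the vesicular GABA transporter gene, was at 0 counts in every library.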

How the data were processed

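The authors deposited a table of 6 libraries, 3 *Abat* cKO and 3 WT, with raw counts per gene, normalized counts, a signal that divides the raw counts by a factor per sample, and the group means of that signal. The table also holds the authors' log2 fold change and adjusted p-value of their own DESeq2 comparison, which were not used here, nor was the normalized signal. Libraries were depleted of ribosomal RNA. The sources differ on the pipeline, TopHat2 with HTSeq on GRCm38 in the supplementary methods against Trim Galore 0.60, STAR 2.7 and RSEM 1.31 in the submitters' processing notes, and neither states the use of strand. The aligner and counter bear on genes that share sequence.

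The deposited raw counts, without the 92 spike-in controls, were compared with edgeR 4.0.16 in R 4.3.3 (TMM scaling, filterByExpr, glmQLFit and glmQLFTest for genotype alone, Benjamini-Hochberg adjustment over 13605 genes). Standard errors and 95% intervals came from the quasi-likelihood F statistic. The biological coefficient of variation was 0.0589. The fit was tested on simulated data. Alternatives were DESeq2 1.42.0, other scalings and filters, the replicate number as a block, an adjusted p under 0.01, leaving out each sample in turn, and leaving out both WT replicate 3 and *Abat* cKO replicate 1, which stood apart from the other samples of their genotypes in a principal component analysis. Gene positions came from GENCODE M21, which held 99.8% of the identifiers, and promoters from RefSeq.

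The genes and lists were chosen with earlier results of these data known. All genes that passed and *Abat* are given in full, the others by interval, range or counts, and from each list up to 4 genes by smallest adjusted p plus 1 that moved the opposite way, with a few others named after their values were seen. The p-values set the difference between genotypes against the spread between these samples, and the number of animals behind each sample was not given.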

Additional observations from a re-analysis of the deposited data

How the results depend on the processing

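Over 14 alternatives and 30 genes, 394 log2 fold changes kept their side of the threshold and, where called, their direction, 19 kept their direction but no longer passed, 7 newly passed, and 0 changed sign while called. At an adjusted p under 0.01, 5 genes of the set were higher and 1 was lower, and 1631 of all genes were higher and 1051 lower. Scaled by library size alone, 6 of the set were higher and 4 lower (*Fh1* and *Sdhc* added, *Suclg2* lost). Scaled to the spike-in counts, 3 of the set were higher (*Pck2*, *Pcx* and *Suclg1*) and 0 lower, with 1339 of all genes higher and 1185 lower, and the median log2 fold change of all genes was -0.04. The cause was not tested. Leaving out each sample in turn gave 5 to 8 genes of the set higher and 1 to 2 lower (1 without *Abat* cKO replicate 2). Of the 13938 to 14019 genes tested in these fits, 1911 to 2507 were higher and 1279 to 2033 lower. With both WT replicate 3 and *Abat* cKO replicate 1 left out, 9 were higher (*Pdha1* and *Pdhb* added) and 3 lower (*Mdh2* added), with 2748 of all genes higher and 2416 lower. DESeq2 gave 5 higher and 2 lower among the 31 genes of the set with an adjusted p, or 22.6%. Of the 15542 genes with an adjusted p in DESeq2, 1940 were higher and 1476 lower, or 22.0%.

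With the replicate number as a block (replicate block), 5 genes of the set were higher and 2 lower, and 2028 of all genes were higher and 1416 lower. *Idh1* (log2 fold change 0.68, adjusted p = 0.054 in edgeR) and *Suclg2* (0.16, 0.066) did not pass with the block. The deviations of same-numbered samples from their group means correlated at -0.287, 0.116 and -0.284. With 3 samples per genotype, these values cannot decide whether same-numbered samples were prepared together. Depth limited *Abat*, *Me1*, *Gad1* and *Gad2*, which were too low for the test, and gave wide intervals for *Aldh5a1* and *Aldh4a1*.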
